A study of Mus musculus with 6 samples.

Results

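The D-type cyclins, the CDK inhibitors and Myc act where a cell decides whether to leave the G1 phase, and their messages were examined in mammary epithelial cells cultured with or without BMP7. The 10 genes were taken by symbol from the deposited counts of 55809 genes: the D cyclins *Ccnd1*, *Ccnd2* and *Ccnd3*, the Cip/Kip inhibitors *Cdkn1a*, *Cdkn1b* and *Cdkn1c*, the INK4 inhibitors *Cdkn2a*, *Cdkn2b* and *Cdkn2c*, and *Myc*. All 10 are listed, and 9 had enough counts to be tested, *Cdkn1c* being the exception. HC11 is a mouse mammary epithelial line, and in the study it was given medium with BMP7 (3 libraries, named BMP7 replicates 1, 3 and 4 after their columns) or medium without it (3 libraries, Ctrl replicates 1, 2 and 3). By the methods, a starvation of 16 h came before stimulation of HC11 cells, BMP7 was used at 50 ng per mL, and it was left on for 30 min or 6 h, without a statement of which duration was sequenced. No genetic change separated the groups, and nothing in the labels says whether libraries came from separate cultures, so p-values measure the spread between these libraries, which may be technical. The comparison asks whether messages of the G1 machinery differ when BMP7 is present.

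BMP ligands bind type I and type II serine/threonine kinase receptors, which phosphorylate SMAD1, SMAD5 and SMAD8, and these enter the nucleus with SMAD4 to regulate genes such as the *Id* family. D cyclins bind CDK4 and CDK6 and phosphorylate the retinoblastoma protein, which frees E2F factors to transcribe the genes of DNA replication. INK4 proteins block CDK4 and CDK6, Cip/Kip proteins bind cyclin–CDK complexes more broadly and chiefly restrain CDK2, and Myc drives growth and opposes transcription of several inhibitors. In the mouse mammary gland cyclin D1 is known for its requirement in the alveolar growth of pregnancy, and HC11 cells are known to carry mutant p53, the classical activator of *Cdkn1a*.

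Total counts ranged from 14607938 (BMP7 replicate 1) to 23748970 (BMP7 replicate 3). All 5 BMP response genes looked at as a check of the labels were higher with BMP7, with log2 fold changes from 2.21 (*Smad6*) to 6.31 (*Id3*). Epithelial markers were abundant, with summed counts of 8255 to 8438 CPM in the Ctrl libraries and 8506 to 9895 CPM in the BMP7 libraries, where CPM are counts scaled to a common library size. This sum was carried by *Krt5* and *Krt14*. Of the 11 epithelial markers, *Krt14* was called higher (log2 fold change 0.43) and 4 were called lower, *Epcam* (-0.42), *Cdh1* (-0.27), *Krt18* (-0.67) and *Cldn3* (-0.31). BMP7 replicates 3 and 4 stood apart from the other libraries: the summed adipocyte markers were 110 and 95.8 CPM in them against 25.9 to 40.4 in the rest, and the summed macrophage markers were 28.8 and 27.5 CPM against 51.9 to 56.4. The largest macrophage fall was in *Lyz2* (6.76 and 6.94 CPM against 22.5 to 26.6), while *Cd68* (13.0 and 12.4 CPM) and *Cd74* (1.91 and 2.04 CPM) were above all Ctrl libraries. Of 9 adipocyte markers tested, 4 were called higher and none lower. Of 10 macrophage markers tested, only *Ptprc* was called, as lower (-1.18). The summed fibroblast markers lay between 115 and 126 CPM in the Ctrl libraries and between 103 and 122 CPM in the BMP7 libraries, a sum set mostly by *Col1a1* and *Pdgfra*. Of 7 tested, *Col1a1* was called lower (-0.41) and 4 were called higher, *Dcn* (1.67), *Col1a2* (1.65), *Col3a1* (0.65) and *Dpt* (2.23), of which *Dcn*, *Col3a1* and *Dpt* were highest in BMP7 replicates 3 and 4. *Pecam1*, at 13.0 to 15.8 CPM in the Ctrl libraries and 23.7 to 25.7 CPM in the BMP7 libraries, was the 1 endothelial marker of 6 with enough counts for a test. No marker of these lists was at 0 in all libraries.

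The promoters of *Cdkn1a* and *Cdkn1b* are shown because these Cip/Kip genes had the smallest adjusted p-values among the 9 tested. Each runs from 250 bases before an annotated start to 50 bases after it, on GRCm38.p6 (RefSeq). *Cdkn1a* has 2 annotated starts. Capitals mark GGCGCC and GGAGCC, which BMP-activated SMADs are known to bind, and the GC box GGGCGG, on either strand, so that CCGCCC and GGCTCC are also marked. In the first *Cdkn1a* window they mark a p53 element, 20 bases made of 2 abutting half-sites, that matches the consensus at 19 of 20 bases.

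Cdkn1a, first start, chr17:29090729-29091028, plus strand: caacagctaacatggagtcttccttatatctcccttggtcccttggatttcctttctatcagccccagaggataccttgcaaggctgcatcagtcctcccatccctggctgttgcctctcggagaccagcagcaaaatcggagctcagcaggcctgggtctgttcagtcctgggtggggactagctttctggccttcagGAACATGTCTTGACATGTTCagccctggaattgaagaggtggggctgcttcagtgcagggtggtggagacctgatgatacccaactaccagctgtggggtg
Cdkn1a, second start, chr17:29093519-29093818, plus strand: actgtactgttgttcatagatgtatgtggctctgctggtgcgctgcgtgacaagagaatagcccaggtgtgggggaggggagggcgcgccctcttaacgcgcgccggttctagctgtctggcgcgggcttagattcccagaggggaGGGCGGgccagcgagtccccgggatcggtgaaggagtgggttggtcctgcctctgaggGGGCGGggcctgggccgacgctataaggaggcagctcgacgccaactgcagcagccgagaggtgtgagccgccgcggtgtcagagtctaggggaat
Cdkn1b, chr6:134920151-134920450, plus strand: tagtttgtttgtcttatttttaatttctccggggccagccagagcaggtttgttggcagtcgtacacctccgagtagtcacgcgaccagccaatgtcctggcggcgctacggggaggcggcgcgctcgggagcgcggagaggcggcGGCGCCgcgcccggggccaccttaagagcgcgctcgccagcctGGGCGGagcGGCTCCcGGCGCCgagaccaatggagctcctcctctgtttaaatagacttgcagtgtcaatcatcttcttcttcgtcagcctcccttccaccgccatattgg

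The first *Cdkn1a* window holds this p53 element and none of the shorter sequences searched, and the second window holds 2 GC boxes. The *Cdkn1b* window holds GGCGCC at 2 places, GGAGCC at 1 and a GC box at 1. A p53 element with at most 1 base off the consensus was present in 0.0883% of all 32851 promoter windows, and in 0.00913% with no base off. Across the same windows GGCGCC was present in 11.9%, GGAGCC in 30.8% and GGGCGG in 35.7%. The GC box and the match with 1 base off were added to the search after these sequences had been seen. The search also covered GTCTAGAC, the E-box CACGTG and the E2F elements TTTCCCGC and TTTGGCGC, which were in 0.213%, 7.15%, 1.07% and 0.514% of all windows and in none of the 3 shown. GGGCGG may directly abut or overlap GGCGCC, and no overlap occurs in the windows printed. Of the 10 genes, 6 had an entry, with 10 windows in all, of which 8 held a GC box, 5 GGAGCC and 4 GGCGCC.

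*Cdkn1a*, which encodes p21, was the 1 member that changed past the threshold, an adjusted p under 0.05 with a fold change over 1.2. Its level was 70.9, 73.4 and 77.6 CPM in Ctrl replicates 1, 2 and 3, and 121, 144 and 116 CPM in BMP7 replicates 1, 3 and 4. Every BMP7 library was above every Ctrl library, with BMP7 replicate 3 the highest. The mean rose from 73.9 ± 3.37 to 127 ± 14.6 CPM (SD, n = 3 each), a fold change of 1.72 (95% interval 1.54 to 1.92). On the log2 scale this was 0.78 ± 0.08 (SE, adjusted p = 3.53e-07, edgeR quasi-likelihood test). The exact permutation test gave p = 0.1, the smallest that 3 libraries against 3 allow. *Cdkn1a* ranked 475 by log2 fold change from the top among 15733 genes tested. In bulk RNA, fewer cells of a kind and less RNA per cell cannot be told apart, for this gene and for those that follow. The 1 called member of 9 is 11.1%, beside 11.3% of all genes tested, so the share of members past the threshold was near the background.

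In the deposited annotation (mm39) *Cdkn1a* lies on the plus strand of chromosome 17, from 29309950 to 29319701. Strand was not used in counting, and 7.68% of its exon bases are shared with *1700023B13Rik* on the other strand. Stretches of 135 to 262 bases of it also match many other genes at 95% identity or more. Without BMP7 replicate 3 its log2 fold change was 0.68, and without BMP7 replicate 4 it was 0.84. In BMP7 replicate 1 alone against Ctrl it was 0.72, from a lone library that has no spread of its own. The libraries left out there, BMP7 replicates 3 and 4, are those whose adipocyte and macrophage markers stood apart. Their part in the rise was not tested.

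**Figure D1:**
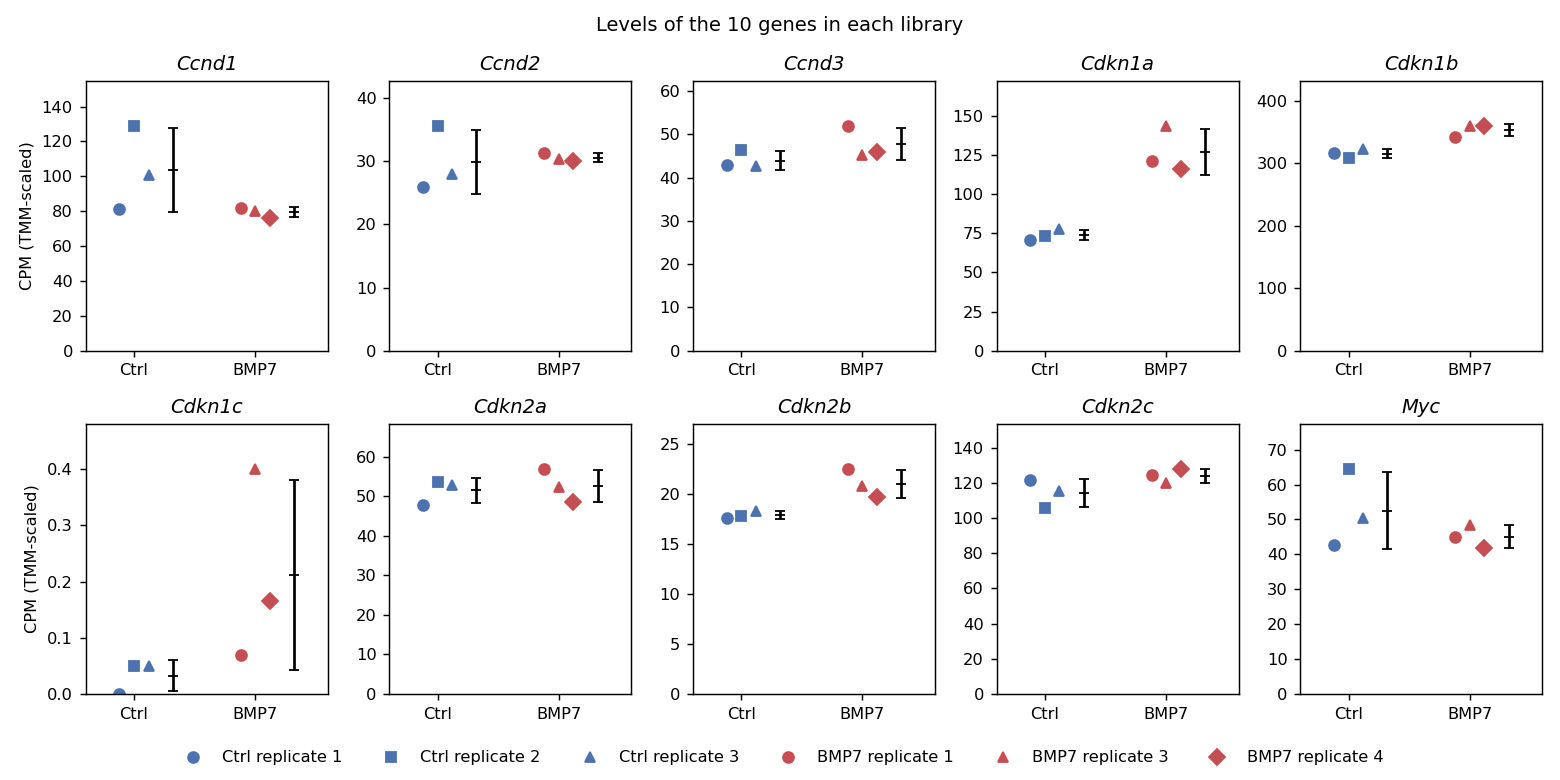
Level of each of the 10 genes in every library, in CPM after TMM scaling (y axis, from 0, with its own range for each gene). Blue symbols are Ctrl libraries, red symbols BMP7 libraries, and black bars the mean ± SD of 3. *Cdkn1a* separates the groups widely (70.9 to 77.6 against 116 to 144 CPM), while the Ctrl libraries of *Ccnd1*, *Ccnd2* and *Myc* spread more than their BMP7 libraries.

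*Cdkn1b*, which encodes p27, the inhibitor that accumulates in quiescent cells, was the most abundant member and did not pass the threshold. It was at 316, 308 and 322 CPM in Ctrl replicates 1, 2 and 3 and at 342, 359 and 359 CPM in BMP7 replicates 1, 3 and 4. The groups did not overlap, yet the gap was small beside the level. Mean levels were 315 ± 7.07 and 353 ± 10 CPM (SD, n = 3 each), a log2 difference of 0.16 ± 0.06 (95% interval 0.04 to 0.28, adjusted p = 0.063). Over the 14 alternatives tried its adjusted p ran from 0.0288 to 0.351 with log2 fold changes from 0.12 to 0.19, all under the fold change of 1.2 required. The gene lies on chromosome 6 from 134897364 to 134902476 (plus strand), and no other gene shares its exon bases.

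*Cdkn1c*, which encodes p57 and is an imprinted gene, was close to absent. Its counts were 0, 1 and 1 in Ctrl replicates 1, 2 and 3 and 1, 9 and 3 in BMP7 replicates 1, 3 and 4. BMP7 replicate 3 thus held 9 of the 13 counts with BMP7, against 2 counts in all of Ctrl. Nearly all counts with BMP7 were in replicates 3 and 4, whose adipocyte and macrophage sums stood apart. The part of that difference in the *Cdkn1c* counts was not tested. The ratio of the summed counts per sequenced fragment was 7.27, with a 95% counting interval of 1.65 to 66.4 that ignores the spread between libraries. Of its exon bases, 30.65% are shared with *Gm44732* on the other strand, and the gene was not tested.

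The INK4 inhibitors among the members were all slightly higher with BMP7 on average, and none passed the threshold. *Cdkn2d*, an INK4 gene that is not a member, is given with the lists below. *Cdkn2b*, encoding p15, a known target of TGF-beta signaling, was at 17.6, 17.8 and 18.3 CPM in Ctrl replicates 1, 2 and 3 and at 22.5, 20.8 and 19.7 CPM in BMP7 replicates 1, 3 and 4. Its groups did not overlap, with the Ctrl libraries within 1 CPM of each other. The log2 difference was 0.23 ± 0.09 (95% interval 0.03 to 0.42, adjusted p = 0.123). *Cdkn2c*, encoding p18, was at 122, 106 and 116 CPM in Ctrl replicates 1, 2 and 3 and at 124, 120 and 128 CPM in BMP7 replicates 1, 3 and 4. Ctrl replicate 1 was above BMP7 replicate 3, so the groups overlapped, and the log2 difference was 0.12 ± 0.06 (95% interval -0.02 to 0.25, adjusted p = 0.268).

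*Cdkn2a* encodes both p16 and, in another reading frame, p19Arf, which acts on MDM2, and the gene-level count cannot separate their messages. It was at 47.9, 53.5 and 52.9 CPM in Ctrl replicates 1, 2 and 3 and at 56.8, 52.3 and 48.6 CPM in BMP7 replicates 1, 3 and 4. The ranges crossed widely, with BMP7 replicate 1 the highest library, Ctrl replicate 1 the lowest and BMP7 replicate 4 next to it. The log2 difference was 0.03 ± 0.08 (95% interval -0.13 to 0.19, adjusted p = 0.855). *Cdkn2a* and *Cdkn2b* lie next to each other on the minus strand of chromosome 4, from 89192708 to 89212890 and from 89224536 to 89229276, and neither shares exon bases with another gene.

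All 5 tested CDK inhibitors among the members had a positive log2 fold change, and 3 of them (*Cdkn1a*, *Cdkn1b* and *Cdkn2b*) had groups that did not overlap. These 3 are 33.3% of the 9 tested members, beside 29.8% of all genes tested whose groups did not overlap in either direction. The signs stayed positive under the other scalings and under DESeq2. Without Ctrl replicate 1 or without BMP7 replicate 1, *Cdkn2a* turned negative and 4 of 5 were positive. Over the 9 tested members the median log2 fold change was 0.12, against -0.0062 over all genes tested.

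**Figure D2:**
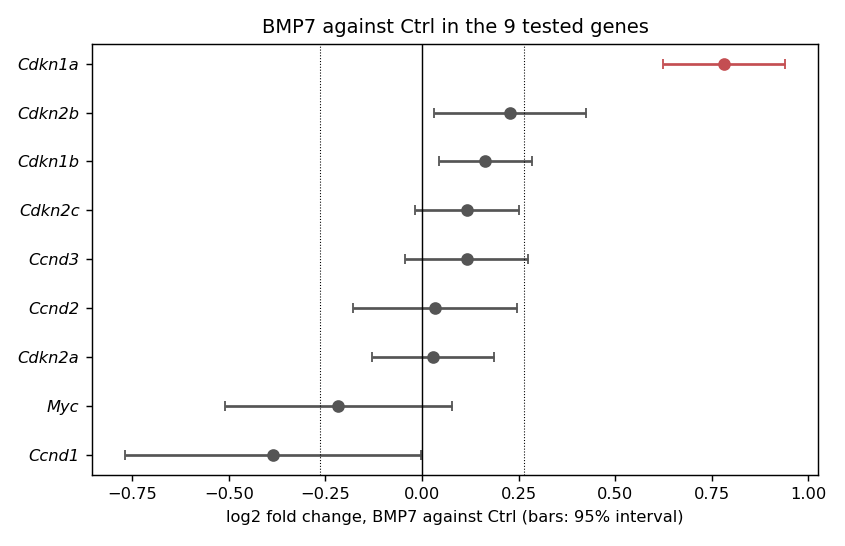
Log2 fold change of BMP7 against Ctrl (x axis) for the 9 tested genes, with 95% intervals from the edgeR fit and dotted lines at a fold change of 1.2 in each direction. Red marks the gene past the threshold. *Cdkn1a* (0.78) stands clear of 0, the other inhibitors lie between 0.03 and 0.23, and *Ccnd1* (-0.39) has the widest interval, ending just under 0.

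The D cyclins did not move together, and none passed the threshold with edgeR or DESeq2. *Ccnd1* was at 81.1, 129 and 101 CPM in Ctrl replicates 1, 2 and 3 and at 81.6, 80.2 and 76.1 CPM in BMP7 replicates 1, 3 and 4. The Ctrl libraries differed from each other by more than the BMP7 libraries did, with a coefficient of variation of 23.2% against 3.60%, and the groups overlapped only through BMP7 replicate 1, just above Ctrl replicate 1. Mean levels were 104 ± 24 and 79.3 ± 2.85 CPM (SD, n = 3 each), a log2 difference of -0.39 ± 0.16 (95% interval -0.77 to -0.0027). The unadjusted p was 0.0488 and the adjusted p 0.188 by edgeR, and an exact permutation test gave p = 0.2.

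This result depended on single Ctrl libraries and on the filter. Without Ctrl replicate 1 the log2 fold change of *Ccnd1* was -0.53 ± 0.09 (edgeR, adjusted p = 0.000468), which passed the threshold, and without Ctrl replicate 2 it was -0.20 ± 0.09 (adjusted p = 0.208). With no filter on low counts the log2 fold change was again -0.39, with a standard error of 0.09 in place of 0.16 (edgeR adjusted p = 0.000696). That call came from the smaller standard error and not from a larger difference, as the libraries and their spread were the same. The level of *Ccnd1* therefore has no call that holds under all the alternatives. The gene lies on chromosome 7 from 144483668 to 144493662 (minus strand), and 23.36% of its exon bases are shared with *LTO1* on the other strand. *LTO1* itself was at 33.2 ± 1.72 CPM in Ctrl and 31.2 ± 3.64 CPM with BMP7 (SD, n = 3 each, adjusted p = 0.542).

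*Ccnd2* was at 26.0, 35.6 and 28.02 CPM in Ctrl replicates 1, 2 and 3 and at 31.4, 30.4 and 30.02 CPM in BMP7 replicates 1, 3 and 4. Its BMP7 libraries lay inside the Ctrl range, and the log2 difference was 0.03 ± 0.10 (95% interval -0.18 to 0.25, adjusted p = 0.878). *Ccnd3* was at 42.8, 46.4 and 42.6 CPM in Ctrl replicates 1, 2 and 3 and at 51.9, 45.3 and 45.9 CPM in BMP7 replicates 1, 3 and 4. BMP7 replicate 1 was the high library, Ctrl replicate 2 was above the other BMP7 libraries, and the log2 difference was 0.12 ± 0.08 (95% interval -0.04 to 0.27, adjusted p = 0.363). The pseudogene *Ccnd3-ps* matches *Ccnd3* over 881 bases at 95% identity or more, so reads from that stretch are uncertain.

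*Myc*, the growth-promoting transcription factor that serum and growth factors induce early in G1, was at 42.7, 64.4 and 50.4 CPM in Ctrl replicates 1, 2 and 3 and at 45.1, 48.5 and 41.7 CPM in BMP7 replicates 1, 3 and 4. Its groups overlapped, and Ctrl replicate 2 was the highest library. Mean levels were 52.5 ± 11 and 45.1 ± 3.40 CPM (SD, n = 3 each), a log2 difference of -0.22 ± 0.13 (95% interval -0.51 to 0.08, edgeR adjusted p = 0.344). Without Ctrl replicate 1 it was -0.35 ± 0.10 (adjusted p = 0.0362), and without Ctrl replicate 2 it was -0.04 ± 0.09 (adjusted p = 0.846). *Myc* lies on chromosome 15 from 61857240 to 61862223 (plus strand) and shares no exon bases with another gene.

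*Ccnd1*, *Ccnd2* and *Myc* shared a pattern within the Ctrl libraries. Each was highest in Ctrl replicate 2 and lowest in Ctrl replicate 1, with log2 deviations from the Ctrl mean of 0.34, 0.26 and 0.31 in replicate 2 and -0.33, -0.19 and -0.28 in replicate 1. No such spread was present with BMP7, where the coefficients of variation were 3.60%, 2.26% and 7.53%. This is a description of 3 libraries, without a test.

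**Figure D3:**
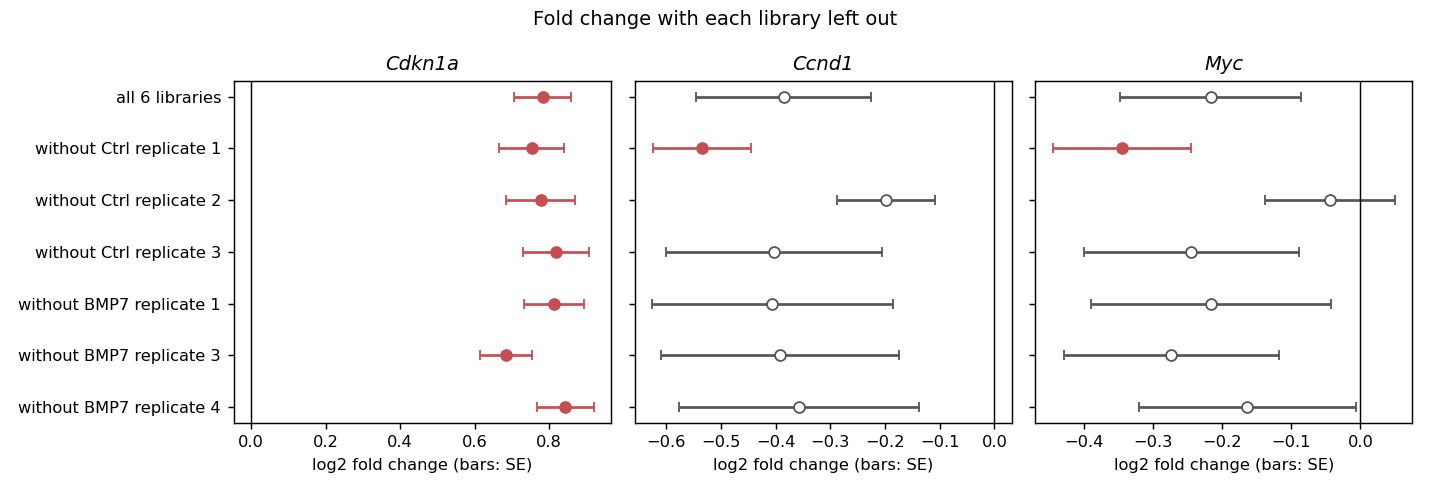
Log2 fold change of *Cdkn1a*, *Ccnd1* and *Myc* (x axes, bars ± SE) with all 6 libraries and with each library left out in turn (y axis), red and filled where past the threshold. *Cdkn1a* stays between 0.68 and 0.84, while *Ccnd1* and *Myc* pass the threshold only without Ctrl replicate 1 and lie nearest 0 without Ctrl replicate 2.

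Levels of different genes can be set side by side only per length, so CPM were divided by the summed exon length in kilobases. This length covers all annotated exons of a gene, 4709 bases for *Ccnd1* and 8775 for *Ccnd3*. A message that uses only some of them would be understated, here and in the sums, shares and ratios below. In Ctrl the order of mean levels was *Cdkn1b* (69.3 CPM per kb), *Cdkn2a* (43.9), *Cdkn2c* (42.6), *Ccnd1* (22), *Cdkn1a* (20.8), *Myc* (19.3), *Cdkn2b* (12.9), *Ccnd3* (5.01), *Ccnd2* (3.17) and *Cdkn1c* (0.0160). The libraries of neighbours in this order overlapped for *Cdkn2a* and *Cdkn2c*, for *Ccnd1* and *Cdkn1a*, and for *Cdkn1a* and *Myc*, so those pairs were not separated. With BMP7 the mean of *Cdkn1a* was 35.7 CPM per kb, and all its libraries were above all those of *Ccnd1* (mean 16.8) and below all those of *Cdkn2a* (mean 44.8). *Ccnd1*, *Myc* (16.6) and *Cdkn2b* (15.1) overlapped in turn there, as did *Cdkn2c* (46.2) and *Cdkn2a*, and the places of *Cdkn1b* (77.6), *Ccnd3* (5.44), *Ccnd2* (3.25) and *Cdkn1c* (0.104) were as in Ctrl.

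**Figure D4:**
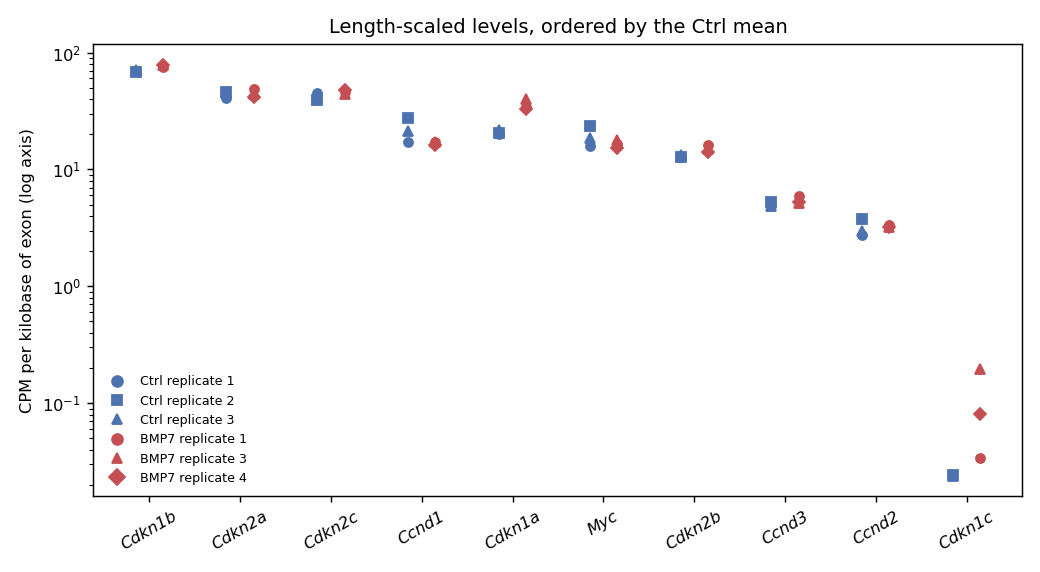
CPM per kilobase of exon in each library (y axis, log scale) for the 10 genes, ordered along the x axis by their Ctrl mean. Blue symbols are Ctrl and red symbols BMP7 libraries, and the Ctrl replicate 1 value of *Cdkn1c* is 0 and cannot be drawn on a log axis. *Cdkn1b* is the highest gene in all libraries, and *Cdkn1a* moves from the level of *Ccnd1* and *Myc* to above them with BMP7.

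Ratios within a library do not depend on how libraries were scaled. *Ccnd1* stood to *Ccnd2* in log2 ratios of 2.64, 2.86 and 2.85 in Ctrl replicates 1, 2 and 3 and of 2.38, 2.40 and 2.34 in BMP7 replicates 1, 3 and 4. The groups did not overlap, and the mean log2 ratio went from 2.78 ± 0.12 to 2.37 ± 0.03 (SD, n = 3 each), a linear ratio of 6.87 against 5.18. The exact permutation test gave p = 0.1, the smallest possible, and the difference of -0.41 ran from -0.48 to -0.37 when 1 library was left out. *Ccnd1* thus made up 72.5 ± 2.99% of the length-scaled D cyclin message in Ctrl and 66.0 ± 0.922% with BMP7 (SD, n = 3 each).

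The sum of the D cyclins against the sum of the 6 inhibitors, both per length, had log2 ratios of -2.92, -2.35 and -2.73 in Ctrl replicates 1, 2 and 3 and of -3.05, -3.14 and -3.13 in BMP7 replicates 1, 3 and 4. All BMP7 libraries were below all Ctrl libraries, with Ctrl replicate 1 the nearest. The linear ratio was 0.157 in Ctrl and 0.116 with BMP7, a log2 difference of -0.44 (exact permutation test, p = 0.1, the smallest possible), which shrank to -0.28 without Ctrl replicate 2. Cip/Kip messages summed to 90.1 ± 2.22 CPM per kb in Ctrl and 113 ± 5.39 with BMP7 (SD, n = 3 each), INK4 messages to 99.4 ± 1.85 and 106 ± 4.23, and D cyclin messages to 30.2 ± 5.84 and 25.5 ± 0.999. The INK4 sum and the ratio leave out *Cdkn2d*, which is not a member.

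*Cdkn1a* against *Cdkn1b*, a ratio chosen after the values had been seen, went from 0.300 to 0.459. Its log2 ratios were -1.80, -1.71 and -1.70 in Ctrl replicates 1, 2 and 3 and -1.14, -0.97 and -1.27 in BMP7 replicates 1, 3 and 4, so the groups did not overlap. *Myc* against *Ccnd1*, chosen in the same way, was 0.881 in Ctrl and 0.984 with BMP7.

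The partners, regulators and targets of these genes were followed through 8 lists. Over all genes tested, 5.94% were called higher and 5.4% lower. The 11 tested genes of the first list were for cyclins E and A, cyclin-dependent kinases, their activators and the INK4 inhibitor *Cdkn2d*, which is not a member. None was higher with edgeR or DESeq2 (1 at an unadjusted p under 0.05). *Cdkn2d* was at 24.1 ± 3.33 CPM in Ctrl and 26.1 ± 2.30 CPM with BMP7 (SD, n = 3 each), a log2 difference of 0.11 (edgeR adjusted p = 0.548). *Cdk6*, a kinase partner of the D cyclins, fell by 0.26 on the log2 scale (edgeR adjusted p = 0.019). It was at 126, 156 and 141 CPM in Ctrl replicates 1, 2 and 3 and at 113, 123 and 115 CPM in BMP7 replicates 1, 3 and 4, without overlap, just past the fold change required, and the call was lost under DESeq2, under RLE scaling and without Ctrl replicate 2, Ctrl replicate 3, BMP7 replicate 1 or BMP7 replicate 4. *Cdk4*, the other partner, was at 294 ± 6.42 and 292 ± 10.2 CPM (SD, n = 3 each). The median of this list was 0.04.

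Among 19 pocket proteins, E2F factors and DREAM subunits, *E2f5*, an E2F chiefly acting as a repressor, was higher by 0.31 (adjusted p = 0.0419) and *E2f2*, an activating E2F, was lower by a log2 fold change of -0.29 (adjusted p = 0.0324). *E2f5* went from 17.9 ± 1.07 to 22.2 ± 1.98 CPM and *E2f2* from 37.7 ± 3.81 to 30.9 ± 2.04 CPM (SD, n = 3 each). The *E2f5* call was lost under DESeq2, under upper-quartile scaling and without any 1 of the Ctrl libraries, and the *E2f2* call without Ctrl replicate 2 or BMP7 replicate 3. *Rb1*, the retinoblastoma gene, was at 72.3 ± 2.21 and 84.0 ± 5.81 CPM (SD, n = 3 each), under the fold change required. The median of this list was -0.02.

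E2F target genes of the G1/S transition were the list with the most calls in 1 direction. Of 31 tested, 6 were lower with edgeR (19.4%, beside 5.4% of all genes called lower) and 5 with DESeq2, while none was higher with either tool or at an unadjusted p under 0.05, and 12 were lower by adjusted p alone, beside 6.58% of all genes. A negative log2 fold change was found for 28 of the 31, the median was -0.20, and 18 of 31 had BMP7 libraries all below the Ctrl libraries, beside 15.1% of all genes. The called genes included *Cdc6*, which loads the replicative helicase, *Cdca7*, *Chaf1b* of chromatin assembly factor 1, and the polymerase genes *Pold1* and *Pole*.

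*Cdc6* was at 14.5, 14.1 and 13.1 CPM in Ctrl replicates 1, 2 and 3 and at 10.5, 9.73 and 9.20 CPM in BMP7 replicates 1, 3 and 4, a log2 fold change of -0.51 ± 0.11 (adjusted p = 0.00431). *Cdca7* was at 17.6, 21.2 and 17.6 CPM in Ctrl and at 13.6, 14.05 and 12.01 CPM with BMP7, also -0.51 ± 0.11 (adjusted p = 0.00361). Neither gene had overlapping groups, and BMP7 replicate 4 was the lowest library in both. The log2 fold changes of *Chaf1b*, *Pold1* and *Pole* were -0.41, -0.36 and -0.31, with edgeR adjusted p from 0.00329 to 0.00603. Many replication genes were not called, among them *Mcm4* at 110 ± 8.40 and 108 ± 3.83 CPM and *Rrm2* at 109 ± 2.95 and 113 ± 3.98 CPM (SD, n = 3 each).

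How many E2F targets were called lower depended on single libraries of both groups. The count was 12 without BMP7 replicate 1, 4 without BMP7 replicate 3, 6 without BMP7 replicate 4 and 4 without Ctrl replicate 2. With BMP7 replicate 1 alone against Ctrl it was 1, with 25 of 31 still negative and a median of -0.09. The libraries left out in that comparison, BMP7 replicates 3 and 4, are those with the higher adipocyte and lower macrophage sums given above, and the part of these differences in the E2F target counts was not tested.

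The ubiquitin ligase list, whose products act on cyclins, inhibitors and Myc, had 15 tested genes and a median of -0.04. It also holds the deubiquitinase *Usp28*, which is not a ligase. *Skp1*, a scaffold of SCF ligases, rose by 0.27 (adjusted p = 0.00548), from 143 ± 8.28 to 172 ± 6.74 CPM (SD, n = 3 each). No gene of this list was called higher under upper-quartile scaling, when low counts were not filtered, or without Ctrl replicate 3 or BMP7 replicate 1. *Usp28*, a deubiquitinase that stabilizes Myc, was lower at -0.31, and *Fbxo31*, an F-box protein that targets cyclin D1, at -0.28, but only 1 of them was called by DESeq2 and none without Ctrl replicate 1, Ctrl replicate 2 or BMP7 replicate 3. *Skp2*, the F-box protein that recognizes p27, was at 36.6 ± 3.28 and 33.8 ± 1.52 CPM (adjusted p = 0.401).

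The largest changes around *Myc* were in its relatives and antagonists. Of 12 tested genes of the Myc-Max network 2 were higher and 1 lower, with a median of 0.05. *Mxd1*, a Max partner that opposes Myc, was at 57.6, 56.7 and 57.4 CPM in Ctrl replicates 1, 2 and 3 and at 111, 109 and 104 CPM in BMP7 replicates 1, 3 and 4, a log2 fold change of 0.92 ± 0.06 (adjusted p = 1.6e-09). The libraries within each group were close together and the groups far apart. *Mycl* rose by 0.61 ± 0.08 (adjusted p = 2.27e-05), from 28.5, 24.04 and 27.9 CPM in Ctrl to 39.4, 41.6 and 41.9 CPM with BMP7. *Mycn* fell, with 5.35, 5.21 and 4.06 CPM in Ctrl and 1.603, 1.87 and 2.26 CPM with BMP7, a log2 fold change of -1.34 ± 0.21 (adjusted p = 0.000157). The Myc paralogs thus went different ways: *Mycl* higher, *Mycn* lower and *Myc* not past the threshold.

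Myc target genes of ribosome biogenesis and metabolism were more often lower than higher, but not in every setting. Of 30 tested, 2 were higher (*Eif4e*, the cap-binding translation factor, at 0.33, and *Odc1* of polyamine synthesis, at 0.29) and 1 lower (*Grwd1*, a ribosome assembly factor, at -0.39). No gene was higher without Ctrl replicate 1, and no gene lower without Ctrl replicate 2 or BMP7 replicate 3. The median was -0.10, and 22 of the 30 had a negative log2 fold change. With 1 library left out, the negative genes ranged from 17 to 26 of 30. They were 17 without Ctrl replicate 2, the library in which *Myc* was highest (median -0.02), and 26 without Ctrl replicate 1 (median -0.14). With a block for the replicate number they were 15 of 30 (median 0.0087).

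Of 23 genes of p53 and its targets, 1 was higher and 2 lower (2 and 2 with DESeq2), with a median of -0.08. *Gadd45a*, a stress-response inhibitor of cell cycle progression, rose by 1.33 ± 0.14 (adjusted p = 7.35e-07), from 4.43, 5.90 and 5.48 CPM in Ctrl to 14.1, 13.5 and 12.2 CPM with BMP7. The stress-responsive Polo-like kinases *Plk2* (71.3 ± 5.17 to 48.6 ± 3.04 CPM) and *Plk3* (15.9 ± 0.340 to 10.1 ± 1.31 CPM; SD, n = 3 each) fell, at -0.55 and -0.65 on the log2 scale. *Mdm2*, the ubiquitin ligase of p53, was at 66.1 ± 2.04 and 79.1 ± 4.19 CPM, with an adjusted p of 0.0104 and a log2 fold change of 0.26, marginally under the fold change required. *Cdkn1a* is itself a p53 target and was not counted in this list.

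Of 12 FoxO factors and their quiescence targets, *Gadd45b*, a relative of *Gadd45a* known to respond to TGF-beta and BMP signals, rose by 1.55 ± 0.09 (adjusted p = 8.48e-11), and no gene was called lower with edgeR or DESeq2 (3 at an unadjusted p under 0.05). *Gadd45b* was at 24.2, 23.4 and 22.1 CPM in Ctrl and at 76.9, 66.1 and 61.4 CPM with BMP7. Its groups were far apart. The median of this list was -0.05.

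**Figure D5:**
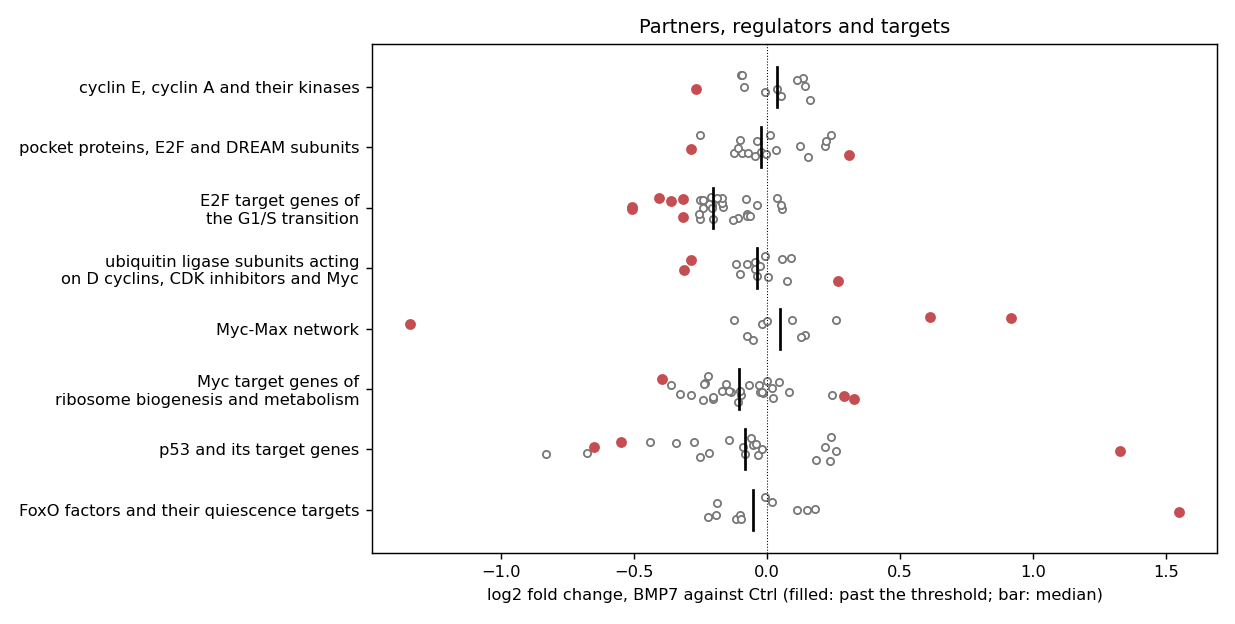
Log2 fold change of BMP7 against Ctrl (x axis) of each tested gene in the 8 lists (y axis), red and filled where past the threshold, with black bars at each list's median. The E2F target list lies mostly left of 0 (median -0.20), and the outlying points are *Mycn* (-1.34), *Mxd1* (0.92), *Gadd45a* (1.33) and *Gadd45b* (1.55).

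The genes whose log2 CPM followed *Cdkn1a* most closely over the 6 libraries were *Erg* (Pearson r = 0.999), *Msx2* (0.999) and *Arf6* (0.999), among all tested genes averaging 1 CPM or more. *Erg* is an ETS transcription factor, *Msx2* a homeobox gene known to respond to BMPs and *Arf6* a small GTPase of membrane traffic. Their log2 fold changes were 1.65, 1.05 and 0.43. All 3 correlations share the same 6 libraries and mostly express the separation of the groups, and no p is given for them.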

How the data were processed

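Poly(A) RNA of HC11 cells was sequenced in 3 libraries with BMP7 and 3 without (Ctrl). For alignment the authors used subjunc on paired reads, and for counting featureCounts on exons grouped by gene name. The deposited counts are raw, beside summed exon lengths. Per the file headers, featureCounts 2.0.1 was run with an mm39 annotation and no strand setting, whereas the methods name mm10, GENCODE vM30 and Subread 2.0.3. The BMP7 columns are numbered 1, 3 and 4 and were matched to their group, not to single samples.

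In the order of their numbers, the Ctrl libraries held 19908386, 19858701 and 20327200 counts in total and the BMP7 libraries 14607938, 23748970 and 18300052. Counting error weighs most on genes with a few counts, such as *Cdkn1c*. It was not separated, gene by gene, from the spread between libraries. Counts were analysed in R 4.3.3 with edgeR 4.0.16: filter by expression (15733 genes), TMM scaling, the robust quasi-likelihood test of BMP7 against Ctrl, and Benjamini-Hochberg adjustment over all genes tested. Calls needed a fold change over 1.2 with adjusted p under 0.05. Standard errors are the log2 fold change over the square root of F. CPM are TMM-scaled without a prior count. Two-sided exact permutation tests used log2 CPM with a prior count of 2, or log2 ratios, and cannot give p under 0.1. The test was tried on simulated counts first.

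The alternatives were DESeq2 1.42.0, RLE and upper-quartile scaling, no filter on low counts, at least 10 counts in every library, adjusted p alone, leaving out each library, leaving out both BMP7 replicates 3 and 4, and a replicate block. Copies were searched with BLAST 2.17.0 in GENCODE vM21 transcripts at 95% identity over at least 100 bases. The text names all 10 members, the called genes of each list (at most 6 per list by fold change; 1 is not reported here), and the 3 genes most correlated with a called member. *LTO1* and the uncalled list genes *Cdk4*, *Cdkn2d*, *Rb1*, *Mcm4*, *Rrm2*, *Skp2* and *Mdm2*, and 3 of the ratios computed, were chosen after their values were seen. The members, lists and tests were chosen with earlier results of these data known.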

Additional observations from a re-analysis of the deposited data

How the results depend on the processing

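*Cdkn1a* was the only member called higher with edgeR, and it was called in all 14 alternatives, with log2 fold changes from 0.68 to 0.84. Its adjusted p was lowest with no filter on low counts (edgeR, 3.79e-27) and next with DESeq2 (7.87e-18), and highest without Ctrl replicate 2 (edgeR, 3.63e-05). The log2 fold change was 0.78 without the filter and 0.79 with DESeq2, against 0.78 in the main fit. Those very small values therefore do not mean a larger difference. No member was called lower with all libraries, 1 (*Ccnd1*) was when low counts were not filtered, and 0 to 2 were when 1 library was left out, the 2 being *Ccnd1* and *Myc* without Ctrl replicate 1. The signs of small differences turned: with 1 library left out *Ccnd2* ran from -0.057 (without Ctrl replicate 1) to 0.18, also turning without Ctrl replicate 3, and *Cdkn2a* ran from -0.027 (without BMP7 replicate 1) to 0.081, also turning without Ctrl replicate 1. In the 8 lists 8 genes were higher and 14 lower, against 15 and 24 by adjusted p alone and 7 lower without both BMP7 replicates 3 and 4. Leaving out 1 library gave 6 to 9 higher and 7 to 19 lower, the 7 being without Ctrl replicate 2 and 9 without BMP7 replicate 3. Over all genes 935 were higher and 849 lower, and the other settings stayed within 1.5 times of both. Beyond the construction of each setting, the cause was not tested.

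The columns of both groups share the numbers 1 and 3. The deviations of same-numbered libraries from their group means correlated at -0.0142 and 0.116. So few pairs cannot show whether same-numbered libraries were made together, and the labels do not say. Number 2 occurs only in Ctrl and number 4 only with BMP7. With the replicate block the fold changes therefore rested on the libraries numbered 1 and 3. In that setting 1141 genes were higher and 945 lower, *Cdkn1a* stayed past the threshold at 0.83, *Myc* went to 0.0081 and *Ccnd1* to -0.17.

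The groups of *Cdkn1b* and *Cdkn2b* did not overlap, yet their adjusted p did not pass the threshold with all libraries. *Cdkn1c* had too few counts for a test. The duration of stimulation is not known, strand was not used in counting, and gene-level counts cannot separate the 2 products of *Cdkn2a*. Messages were measured, not proteins.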
